A study of Homo sapiens with 6 samples.

Results

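Interferon-stimulated genes are the genes that cells switch on after contact with interferon, the cytokine of antiviral defence. A set of 38 gene symbols was followed here in Toledo cells, an established human line from a diffuse large B cell lymphoma. The rule lists these symbols, matched through the Ensembl identifier and GENCODE release 29, and uses no value of these libraries, though results of these data were known when it was written. Of the 38 symbols, 32 matched a row among the 18278 genes listed, and CMPK2, GBP2, IFI44, IFI44L, OASL and RSAD2 were not analysed here. Messenger RNA was sequenced from 3 samples grown for 6 days with 5 uM TP-064, an inhibitor of the arginine methyltransferase CARM1, and from 3 samples grown for the same time with DMSO, the solvent. The series addresses CARM1 inhibition in lymphomas with mutated CREBBP or EP300, both of them acetyltransferase genes. No interferon treatment is named in the labels, so these are levels in cells without added interferon as far as the labels say. All samples are of 1 cell line, and nothing in the labels says that replicates were separate cultures, so p-values cover only a spread among these samples that may be technical.

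As background, interferons of type I bind the receptor pair IFNAR1 and IFNAR2, and the bound kinases JAK1 and TYK2 then phosphorylate transcription factors that include STAT2. Phosphorylated STAT2 acts with IRF9 in the factor ISGF3, which binds the interferon-stimulated response element in the promoters of its target genes. Interferon gamma acts through another motif, the gamma-activated site. Many of the targets encode the pathway's own parts, such as STAT2, IRF9, IRF7 and the RNA sensors, while others act directly on viral RNA, membranes or protein modification.

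The promoters of the set held the core of the response element more often than promoters in general. The set lists known targets of the factor that binds this element, so the difference is no finding about these data. RefSeq promoter windows on GRCh38.p14, running from 250 bases before to 50 bases after each start, were found for 26 of the 32 genes. The element's core was searched on both strands as GAAANNGAAA, which reads TTTCNNTTTC on the other strand, and overlapping copies were counted. It was present for 19 of the 26 genes (73.1%), against 1195 of 27305 genes in the whole table (4.38%). A core followed by C or G was found for the same number, 19 of 26, against 2.28% of all genes. The gamma-activated site, searched as TTCNNNGAA on both strands, was present for 7 of the 26 genes (26.9%) and for 9.38% of all genes. These matches describe letters in a fixed window and are no proof of a bound site.

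Sequences are shown for the genes with a core whose called rise or fall was largest, PARP9 and IFIH1 among those higher after TP-064 and HERC5 and ISG20 among those lower, together with ISG15, the ubiquitin-like modifier of the set, which was added after its values were seen. Each run is written 5′ to 3′ on the strand of the gene, capitals mark the core on either strand, and the stretches come from RefSeq on GRCh38.p14, shortened to hold at most 30 bases of annotated exon. They lie at chr3:122564322-122564351 (minus strand) for PARP9, chr2:162318687-162318852 (minus) for IFIH1, chr4:88456869-88457118 (plus) for HERC5, chr15:88638937-88638966 (plus) for ISG20 and chr1:1013247-1013452 (plus) for ISG15.
PARP9: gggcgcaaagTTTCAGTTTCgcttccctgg
IFIH1: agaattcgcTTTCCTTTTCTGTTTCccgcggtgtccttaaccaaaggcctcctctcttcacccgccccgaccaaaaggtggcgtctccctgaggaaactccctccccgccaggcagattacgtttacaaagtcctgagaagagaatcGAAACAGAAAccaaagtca
HERC5: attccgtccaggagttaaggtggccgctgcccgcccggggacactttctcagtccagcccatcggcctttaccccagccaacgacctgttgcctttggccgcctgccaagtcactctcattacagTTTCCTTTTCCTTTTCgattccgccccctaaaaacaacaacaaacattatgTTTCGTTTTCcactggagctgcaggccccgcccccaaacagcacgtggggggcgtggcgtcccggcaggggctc
ISG20: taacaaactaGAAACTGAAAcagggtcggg
ISG15: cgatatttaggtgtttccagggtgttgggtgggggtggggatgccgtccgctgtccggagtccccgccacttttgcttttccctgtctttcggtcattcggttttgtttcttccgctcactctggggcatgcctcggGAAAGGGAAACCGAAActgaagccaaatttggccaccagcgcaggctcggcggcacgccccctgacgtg
PARP9 and ISG20 each showed 1 copy in these stretches, IFIH1 and HERC5 showed 3 each, and ISG15 showed 2 that overlap. The copy printed for PARP9 is shared with its neighbour DTX3L, since the pair start close together on opposite strands. RefSeq gives PARP9 starts 1 and 2. The shared copy starts 41 bases before PARP9 start 2 and 6 bases before the DTX3L start, and the window of PARP9 start 1 held no core.

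The core was found among genes of every kind of response. It was found for 5 of 8 genes called higher with a window, for 4 of 5 called lower, for 5 of 8 not called and for 5 of 5 too low to test. HERC5, which had the largest fall among the tested genes, had 3 copies, and STAT2, called higher, had none in its window. HERC6, IRF9, DDX58, OAS1, SAMD9L and XAF1 also had no match. No window was found for IFIT2, IFITM2, IRF7, MX2, OAS2 and USP18.

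**Figure D1:**
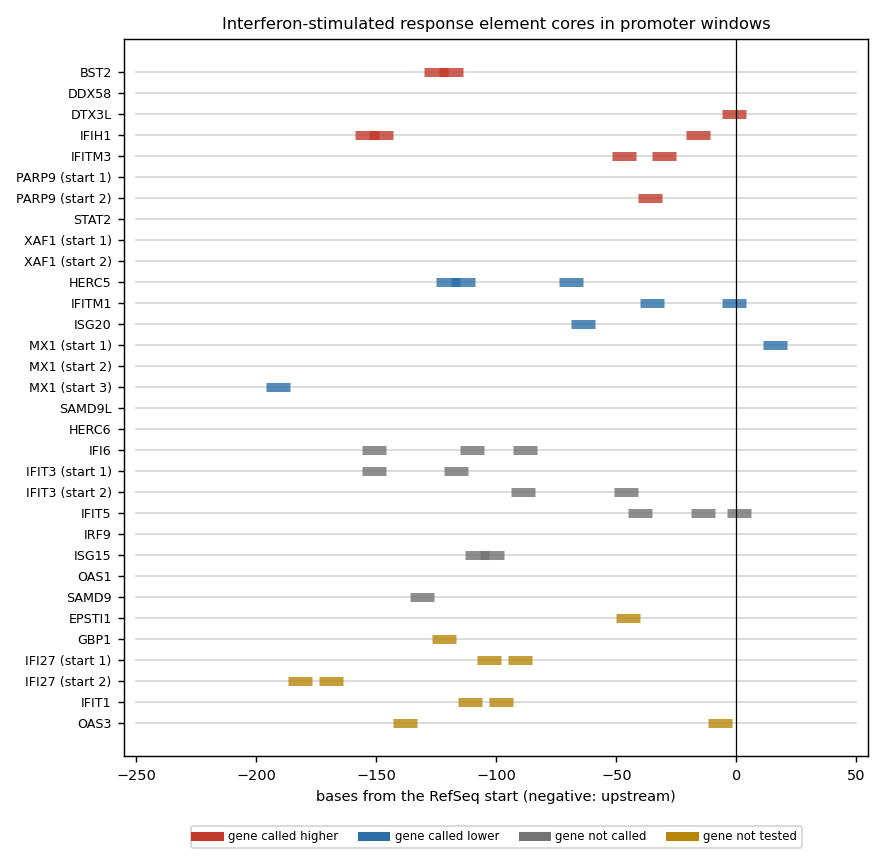
Position of each GAAANNGAAA core, on either strand, in the promoter windows of 26 interferon-stimulated genes, in bases from the RefSeq start (negative values are upstream), with 1 line per window and colour for the gene's call after TP-064. Cores appear in 5 of 8 genes called higher, 4 of 5 called lower, 5 of 8 not called and 5 of 5 not tested, and HERC5 and IFIH1 carry 3 copies each.

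The libraries held 41354131 to 48360867 recovered reads over the listed genes, and levels below are normalized read counts, that is reads divided by the authors' size factor for the library. TP-064 replicate 3 stood apart from the others. Across genes, its log values correlated with the other TP-064 libraries at 0.980 and 0.983, against 0.992 for TP-064 replicates 1 and 2 and 0.993 for each DMSO pair. Reads of 815 antisense genes came to a median of 0.796% of the reads of the gene opposite, itself at a mean of at least 1000, in that library, and to 0.216% to 0.285% in the other 5. The defining B cell markers were present, with all 8 of 8 at a mean of at least 100 and a summed level of 205054 to 222338 after TP-064 and 194586 to 199819 after DMSO. Of 8 T and NK cell markers 2 matched, with sums of 39.6 to 41.1 and 31.8 to 33.2, and of 8 myeloid markers 3 matched, with sums of 71.2 to 99.5 and 34.6 to 65.6. Of 8 stromal, epithelial and endothelial markers 3 matched, at 402 to 453 after TP-064 and 315 to 349 after DMSO, with COL1A1 falling from a mean of 287 to 136 and PECAM1 rising from 32.8 to 272. CARM1 itself read 3401, 3499.6 and 3371 with TP-064 and 4003, 3884 and 4217 with DMSO, and since TP-064 acts on the protein this level does not test the labels.

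As a set, the interferon-stimulated genes changed about as often as other genes and in both directions, so their count of calls is not a result about the set. Genes averaging 10 or more normalized read counts over the 6 samples were tested with limma on log2 of the value plus 1, and a gene counted as called where its p, adjusted by Benjamini-Hochberg over all 16048 genes tested, was under 0.05. Of the 32 genes, 27 were tested, and 17 of them were called (63.0%), against 65.1% of all tested genes. Of these, 11 were higher after TP-064 (40.7%, against 31.9% of all genes) and 6 were lower (22.2%, against 33.3%). A called change of at least 2-fold was seen for 4 of the 27 (14.8%, against 13.1%), with USP18, STAT2 and PARP9 higher and HERC5 lower. In 17 of the 27 (63.0%) the TP-064 and DMSO libraries did not overlap, against 69.1% of all genes. The median log2 fold change of the 27 was 0.13, beside 0.01 over all genes, and the median absolute change was 0.35 in both. A fold change is TP-064 minus DMSO on the log2(value + 1) scale, which understates changes of low genes. Only USP18 passed the filter with a DMSO mean under 10. When libraries were scaled by total reads alone, the median of all genes moved to 0.13, the share of higher among all calls went from 48.9% to 61.5%, and the set had 15 higher and 6 lower. In bulk RNA, fewer cells with a transcript and less of it per cell cannot be told apart.

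**Figure D2:**
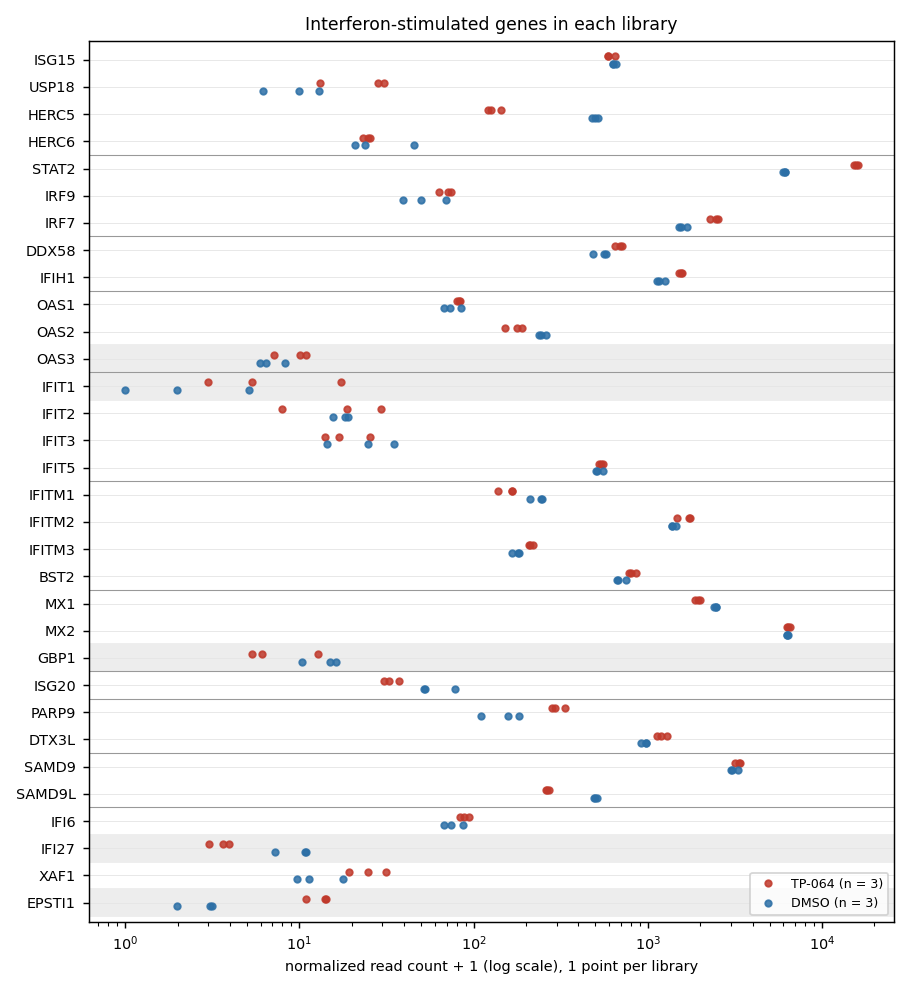
Normalized read count plus 1 (log scale) of the 32 interferon-stimulated genes, with 1 point per library, red for TP-064 and blue for DMSO (3 each), lines between roles and grey bands behind the 5 genes too low to test. STAT2 (15249.5 to 16046 against 5976 to 6152) and HERC5 (119.8 to 142 against 474 to 515) show the widest separation among the well expressed genes, while ISG15 and MX2 overlap.

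Among the transcription factors of the response, STAT2 and IRF7 rose and IRF9 was not called. STAT2, which carries the activation domain of ISGF3 (chr12:56341597-56360155, minus strand of GRCh38), read 16046, 15249.5 and 15673 in the TP-064 libraries and 6135, 5976 and 6152 in the DMSO libraries. All TP-064 values were above all DMSO values, with means of 15656 ± 399 with TP-064 and 6088 ± 97.2 with DMSO (SD, n = 3 each), a 2.57-fold difference. Its log2 fold change was 1.36 (limma SE 0.03, adjusted p = 6.82e-14), the largest rise among the 27 tested genes on this scale, while USP18, at few reads, had a larger ratio of means, at 2.65-fold, and a larger log2 fold change with DESeq2, at 1.42 against 1.37. It stayed between 1.34 and 1.38 with any 1 library left out.

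IRF7, which drives the later wave of type I interferon production (chr11:612553-615999, minus strand of GRCh38), read 2450.0, 2515 and 2266 with TP-064 and 1543, 1518 and 1681 with DMSO. The groups did not overlap, at 2410.4 ± 129 with TP-064 and 1580.5 ± 87.6 with DMSO (SD, n = 3 each). The log2 fold change was 0.61 (limma SE 0.05, adjusted p = 5.72e-08). In these libraries of 1 cell line, 2 of 4 markers of plasmacytoid dendritic cells, a cell type rich in IRF7, matched. Their sums were 390 to 511 after TP-064 and 98.6 to 106 after DMSO. Most of this was LILRA4, at a mean of 387 against 59.1, while CLEC4C was at 60.9 against 42.2. IL3RA and NRP1 were not analysed here. Whether LILRA4 and CLEC4C bear on the IRF7 result was not tested.

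IRF9, the DNA-binding subunit of ISGF3 (chr14:24161053-24166565, plus strand of GRCh38), read 62.1, 73.2 and 70.1 with TP-064 and 38.4, 68.6 and 48.7 with DMSO. DMSO replicate 2 lay inside the TP-064 range and the other DMSO libraries below it. The log2 fold change was 0.43 (limma SE 0.20, adjusted p = 0.079), not called. It was called at 0.65 without DMSO replicate 2 and at 0.55 with scaling to total reads. Exons of IRF9 overlap those of AL136295.5 on the same strand. Reads there could be assigned to AL136295.5 or to neither gene, and the IRF9 level and its missing call carry this limit.

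Of the 4 ISG15 modification genes, USP18 rose, HERC5 fell, and ISG15 and HERC6 were not called. ISG15 is a small ubiquitin-like protein attached to other proteins, HERC5 is its main ligase, HERC6 a related ligase, and USP18 removes it and also restrains the type I receptor. ISG15 (chr1:1001138-1014540, plus strand of GRCh38), with its pair of promoter cores, read 593, 647 and 588 with TP-064 and 653, 633 and 634 with DMSO. The groups overlapped, at 609 ± 32.7 with TP-064 and 640.0 ± 11.3 with DMSO (SD, n = 3 each). Its log2 fold change was -0.07 (limma SE 0.06, adjusted p = 0.305), and scaling to total reads put it at 0.05, also not called.

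HERC5 (chr4:88457117-88506163, plus strand of GRCh38) fell most of the 27. It read 142, 126 and 119.8 with TP-064 and 474, 497 and 515 with DMSO, so every TP-064 library was far below every DMSO library. The means were 129 ± 11.8 with TP-064 and 495 ± 20.2 with DMSO (SD, n = 3 each), 3.83-fold lower, and the log2 fold change was -1.93 (limma SE 0.09, adjusted p = 6.87e-11). Its neighbour HERC6 read 24.5, 23.7 and 22.3 with TP-064 and 19.7, 44.7 and 22.7 with DMSO, overlapping, with a log2 fold change of -0.20 (limma SE 0.30, adjusted p = 0.57).

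USP18 (chr22:18149899-18177397, plus strand of GRCh38) had few reads, at 27.1, 29.7 and 12.2 with TP-064 and 5.19, 8.95 and 11.9 with DMSO. TP-064 replicates 1 and 2 were clearly higher, and replicate 3 lay just above the highest DMSO library. The means were 23.0 ± 9.44 with TP-064 and 8.68 ± 3.36 with DMSO (SD, n = 3 each), with a log2 fold change of 1.28 (limma SE 0.40, adjusted p = 0.012). The call was lost without TP-064 replicate 1 (1.12, adjusted p = 0.0613), without TP-064 replicate 2 (1.06, adjusted p = 0.0611) and without DMSO replicate 1 (0.99, adjusted p = 0.0529). Near-identical copies of USP18 exist in the genome, so reads could be shared among them and the value is uncertain.

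Both cytosolic RNA sensors rose by small amounts. DDX58, which encodes RIG-I and recognises short viral RNA ends, read 647, 710.2 and 696 with TP-064 and 576, 563 and 486 with DMSO. IFIH1, which encodes MDA5 and recognises long double-stranded RNA, read 1568, 1502 and 1559 with TP-064 and 1164, 1134 and 1249 with DMSO. In each gene every TP-064 library was above every DMSO library. The log2 fold changes were 0.34 (limma SE 0.07, adjusted p = 0.000702) for DDX58 and 0.38 (limma SE 0.05, adjusted p = 4.9e-06) for IFIH1.

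In the OAS family, whose enzymes sense double-stranded RNA and make short oligoadenylates, OAS2 fell and OAS1 was not called. OAS2 (chr12:112978395-113011723, plus strand of GRCh38) read 177, 188 and 150.3 with TP-064 and 259, 242 and 238 with DMSO, all TP-064 values below all DMSO values. The means were 172 ± 19.4 with TP-064 and 246 ± 11.0 with DMSO (SD, n = 3 each) and the log2 fold change was -0.52 (limma SE 0.10, adjusted p = 0.000405). OAS1 read 83.0, 81.1 and 79.2 with TP-064 and 66.4, 72.6 and 83.3 with DMSO, with a log2 fold change of 0.13 (limma SE 0.15, adjusted p = 0.438), and its groups overlapped. OAS3 was too low to test, at 6.12, 9.89 and 9.14 with TP-064 and 7.27, 4.97 and 5.41 with DMSO.

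None of the 3 tested IFIT genes, whose proteins bind viral RNA, was called. IFIT5 was the family's best expressed gene, at 535, 527 and 553 with TP-064 and 513, 505 and 555 with DMSO, with a log2 fold change of 0.04 (limma SE 0.06, adjusted p = 0.601), and it was called at 0.16 with scaling to total reads. IFIT3 read 13.1, 15.8 and 24.4 with TP-064 and 13.5, 33.8 and 23.8 with DMSO, which is a log2 fold change of -0.35 (limma SE 0.35, adjusted p = 0.399). IFIT2 read 6.99, 17.8 and 28.4 with TP-064 and 14.5, 17.9 and 17.3 with DMSO, which is a log2 fold change of -0.09 (limma SE 0.41, adjusted p = 0.856). The range of IFIT2 was wide within TP-064, highest in replicate 3, and its value moved to -0.51 without that library and to 0.43 without TP-064 replicate 1. Its exons overlap LIPA on the other strand, which read 2064, 2332 and 2180.4 with TP-064 and 1904, 1870.0 and 1859 with DMSO. IFIT1 was too low to test, at 4.37, 1.98 and 16.2 with TP-064 and 4.15, 0.994 and 0 with DMSO. Its DMSO replicate 3 held 0 reads, which allows up to 3 reads or 3.24 normalized read counts, for counting error only, and 16.2 in TP-064 replicate 3 stood above the other 5 libraries.

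The membrane proteins that block viral entry or release moved in opposite directions. IFITM1, at the cell surface (chr11:313506-315272, plus strand of GRCh38), read 136, 166 and 166 with TP-064 and 211, 243 and 247 with DMSO, with no overlap. The means were 156 ± 17.0 with TP-064 and 233 ± 19.6 with DMSO (SD, n = 3 each) and the log2 fold change was -0.58 (limma SE 0.11, adjusted p = 0.000277). IFITM2 read 1471, 1754 and 1733 with TP-064 and 1368, 1449 and 1378 with DMSO, which is a log2 fold change of 0.24 (limma SE 0.06, adjusted p = 0.00319).

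IFITM3, which like IFITM2 acts in endosomes, read 209, 219 and 206 with TP-064 and 181, 178 and 164 with DMSO, which is a log2 fold change of 0.28 (limma SE 0.09, adjusted p = 0.0176). The IFITM3 call was lost without TP-064 replicate 2 (adjusted p = 0.0540), without DMSO replicate 3 (adjusted p = 0.0663) and with DESeq2 (adjusted p = 0.0659). BST2, or tetherin, which holds budding virions at the membrane, read 779.7, 849.7 and 799 with TP-064 and 661, 746 and 672 with DMSO, which is a log2 fold change of 0.23 (limma SE 0.06, adjusted p = 0.00476). IFITM2, IFITM3 and BST2 were each higher in every TP-064 library than in any DMSO library, the reverse of IFITM1. The IFITM genes are close copies of each other. The annotated span of IFITM1 also lies wholly within that of IFITM2 (chr11:307631-315272), on the same strand and with overlapping exons. Reads of these genes could therefore be assigned to the wrong copy or to neither, and the opposite directions of IFITM1 and IFITM2 carry this limit. IFITM3 also overlaps the antisense gene AC136475.5, which read 37.6 to 53.4 after TP-064 and 31.8 to 43.3 after DMSO.

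Of the dynamin-like GTPases that trap viral capsids, MX1 fell and MX2 was not called. MX1, which has its core just after one annotated start and upstream of another, read 1857, 1991 and 1929 with TP-064 and 2406, 2466 and 2474 with DMSO, with no overlap, which is a log2 fold change of -0.35 (limma SE 0.04, adjusted p = 2.29e-06). MX2 read 6281, 6586 and 6352 with TP-064 and 6336, 6256 and 6412 with DMSO, overlapping, which is a log2 fold change of 0.02 (limma SE 0.03, adjusted p = 0.7). Scaling to total reads put MX2 at 0.14 and called it, and kept MX1 lower at -0.22. The antisense gene AP001610.1 opposite MX1 read 18.3 in TP-064 replicate 3 and at most 2.08 elsewhere, and MX1 was at -0.35 without that library too. GBP1, a guanylate-binding protein strongly induced by interferon gamma, was too low to test, at 4.37, 11.9 and 5.08 with TP-064 and 9.34, 13.9 and 15.1 with DMSO.

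ISG20, an exonuclease that degrades viral RNA (chr15:88636153-88656483, plus strand of GRCh38), read 29.7, 31.7 and 36.6 with TP-064 and 51.9, 77.5 and 50.8 with DMSO. Every TP-064 library was below every DMSO library, at 32.6 ± 3.53 with TP-064 and 60.1 ± 15.1 with DMSO (SD, n = 3 each), and DMSO replicate 2 was the highest. The log2 fold change was -0.84 (limma SE 0.21, adjusted p = 0.00277).

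PARP9 and DTX3L, whose proteins form an ADP-ribosyltransferase and ubiquitin ligase complex with roles in interferon responses and DNA repair, rose together. PARP9 (chr3:122527924-122564577, minus strand of GRCh38) read 282, 332 and 292 with TP-064 and 109, 181 and 156 with DMSO. The groups did not overlap, with means of 302 ± 26.4 with TP-064 and 149 ± 36.5 with DMSO (SD, n = 3 each), a 2.04-fold difference. The log2 fold change was 1.05 (limma SE 0.15, adjusted p = 1.72e-05), and at least 0.84 with any 1 library left out.

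DTX3L (chr3:122564238-122575203, plus strand of GRCh38) read 1131, 1283 and 1186 with TP-064 and 981, 979 and 913 with DMSO, also without overlap, which is a log2 fold change of 0.32 (limma SE 0.06, adjusted p = 0.000119). Exons of the pair overlap on opposite strands over their shared start region. No source used here gives the strand setting of the authors' counting, so reads of the overlap could fall to either gene or be counted for neither.

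Of the adjacent genes SAMD9 and SAMD9L, whose proteins restrain poxviruses and cell growth, SAMD9L fell and SAMD9 was not called. SAMD9L (chr7:93130055-93148369, minus strand of GRCh38) read 269, 260.1 and 263 with TP-064 and 495, 509 and 491 with DMSO, close within each group and far apart between them. The means were 264 ± 4.63 with TP-064 and 498 ± 9.42 with DMSO (SD, n = 3 each) and the log2 fold change was -0.91 (limma SE 0.07, adjusted p = 1.67e-08). SAMD9 read 3168, 3377 and 3348 with TP-064 and 2989, 3282 and 3026 with DMSO, overlapping, with a log2 fold change of 0.09 (limma SE 0.04, adjusted p = 0.0836). It was called higher in 7 of the alternatives tried, at 0.09 to 0.21.

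Of the remaining genes, XAF1, a proapoptotic partner of XIAP (chr17:6755447-6775647, plus strand of GRCh38), read 18.4, 23.7 and 30.5 with TP-064 and 10.4, 16.9 and 8.65 with DMSO. The groups did not overlap, at 24.2 ± 6.07 with TP-064 and 12.0 ± 4.35 with DMSO (SD, n = 3 each), with a log2 fold change of 0.98 (limma SE 0.33, adjusted p = 0.0175). Its call was lost without TP-064 replicate 3 (0.80, adjusted p = 0.0677), without DMSO replicate 3 (0.79, adjusted p = 0.0686) and with DESeq2 (adjusted p = 0.0520). IFI6, a small membrane protein, read 83.0, 93.0 and 87.3 with TP-064 and 86.2, 66.6 and 73.5 with DMSO, not called at 0.22 (limma SE 0.15, adjusted p = 0.203).

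IFI27 and EPSTI1 were too low to test under the filter. IFI27 read 2.62, 2.97 and 2.03 with TP-064 and 6.23, 9.94 and 9.73 with DMSO, each TP-064 value below each DMSO value. EPSTI1 read 13.1, 9.89 and 13.2 with TP-064 and 2.08, 0.994 and 2.16 with DMSO, the other way round. With no filter on low values IFI27 was at -1.43 (adjusted p = 0.0340) and EPSTI1 at 2.27 (adjusted p = 0.00179), and the set then had 12 higher and 7 lower of 32 (59.4% called), against 58.5% of all genes without the filter. The lowest mean among the tested genes of the set was 15.8 and the highest among those left out was 9.95.

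**Figure D3:**
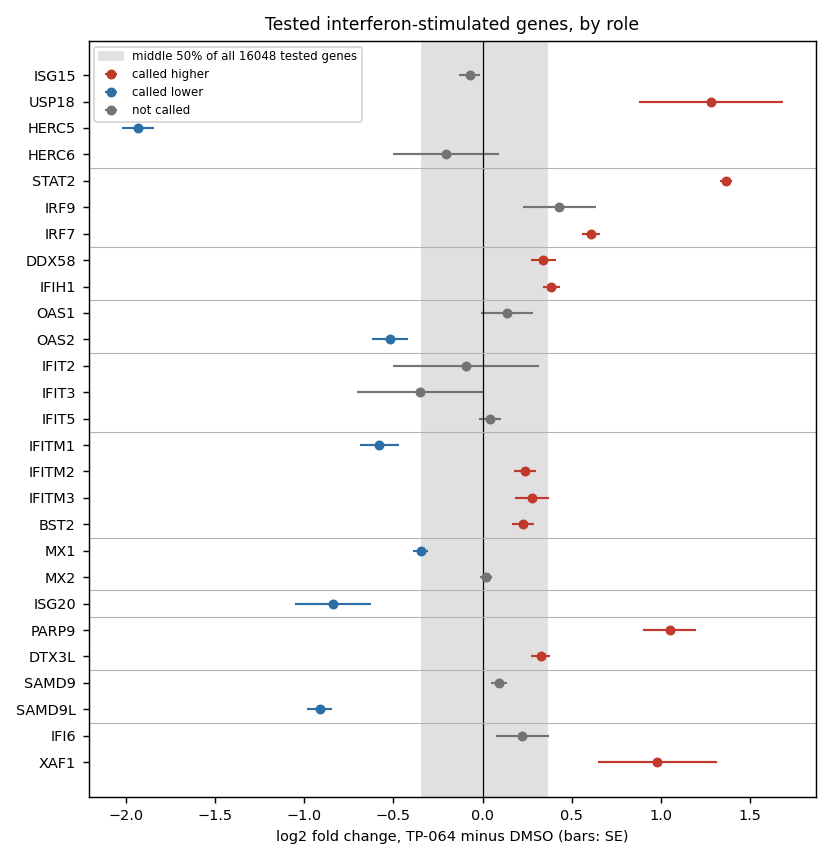
Log2 fold change (TP-064 minus DMSO) of the 27 tested interferon-stimulated genes, grouped by role, with bars for the standard error and a grey band for the middle 50% of all 16048 tested genes, from -0.34 to 0.36. HERC5 at -1.93 and STAT2 at 1.36 lie at the ends, and both directions occur within the ISG15 modification genes and within the IFITM family.

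The ratio between neighbouring genes of the set was followed in each library. Pairs were tested genes within 150 kb of each other with no other gene of the set between them, tested or not. OAS1 with OAS2 and IFIT3 with IFIT5 were thus not paired. The log2 ratio of the pair in each library did not overlap between groups for 6 of 7 pairs. Over all genes, each tested gene was paired with the next tested gene at this distance, and the share was 62.1% of 13625 pairs. These pairing rules differ and the pairs of the set are few, so the count is not read as a result about these clusters. HERC6 and HERC5 are 14005 bases apart, and their log2 ratio, HERC6 over HERC5, was -2.41 ± 0.08 with TP-064 and -4.14 ± 0.60 with DMSO (SD, n = 3 each), a difference of 1.73. For SAMD9 over SAMD9L, 12031 bases apart, the ratio was 3.64 ± 0.07 and 2.63 ± 0.05. HERC5 and SAMD9L were called lower, and HERC6 and SAMD9 were not called.

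IFITM2 over IFITM1 differed by 0.82, IFITM1 over IFITM3 by -0.86, MX2 over MX1 by 0.36 and PARP9 over DTX3L by 0.72, while IFIT2 over IFIT3 overlapped between groups. The two-sided exact permutation p was 0.1 for each of the 6, the smallest that 3 against 3 can give, so that no pair could pass 0.05, or 0.117 adjusted over the 7 pairs, and 0.5 for IFIT2 over IFIT3. This comparison was chosen after the values of single genes were seen, and it shows unequal change within a pair, not which gene stayed constant.

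Compared per kilobase of exon, the set spanned a wide range of levels in DMSO cells. STAT2 was highest at 996 ± 15.9 normalized reads per kilobase, followed by IFITM2 at 906 ± 28.8 and ISG15 at 680.1 ± 12.0 (SD, n = 3 each). BST2 at 619 ± 41.1 and IRF7 at 601 ± 33.3 did not differ beyond their spread. MX2 at 486 ± 5.97 and SAMD9 at 452 ± 23.3 came next, then MX1 at 284 ± 4.31 and IFIH1 at 231 ± 11.7. IFIT5, IFITM3 and DDX58 lay within their spread of each other, at 131 ± 6.66, 129 ± 6.47 and 124 ± 11.2. At the low end were OAS3 at 0.713 ± 0.148, IFIT1 at 0.372 ± 0.470 and EPSTI1 at 0.354 ± 0.132.

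After TP-064, STAT2 reached 2563 ± 65.2 and IRF7 917 ± 49.3 normalized reads per kilobase, and IRF7 passed BST2 and ISG15, the latter at 647 ± 34.8. HERC5 went from 104 ± 4.24, the 15th place, to 27.1 ± 2.47, the 19th. With the length of the longest transcript in place of all exons, STAT2 and IFITM2 kept the top places in DMSO cells and MX2 came next. Summed over the 32 genes, the mean level was 38382 normalized read counts with TP-064 and 27666 with DMSO, most of the gap being STAT2.

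**Figure D4:**
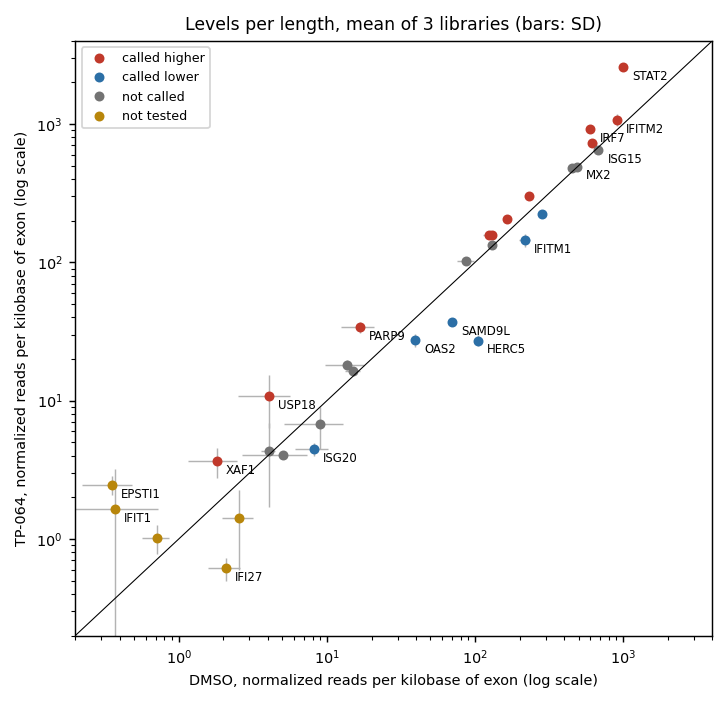
Mean level of each of the 32 genes in DMSO (horizontal) and TP-064 (vertical) cells, in normalized reads per kilobase of exon on log scales, with bars for the SD over 3 libraries and a line of equal levels. STAT2 (996 and 2563) lies above the line at the top and HERC5 (104 and 27.1) below it in the middle of the range.

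The rest of the interferon pathway was described from 5 lists with measured genes, and it too moved in both directions. Of 85 different genes tested in these lists, 24 were higher (28.2%, against 31.9% of all genes), 37 lower (43.5%, against 33.3%) and 24 not called, so that 71.8% were called, against 65.1%, with a median log2 fold change of -0.10, beside 0.01 over all genes. Scaling to total reads turned this balance to 33 higher and 26 lower, so the direction of the lists as a whole depends on the scaling. The 21 interferon ligand symbols were not analysed here. The counts of the single lists below stand beside the same shares over all genes, and none was tested against them.

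Of the 9 receptors and JAK kinases tested, 2 were higher, 4 lower and 3 not called, with a median log2 fold change of -0.05. The type I receptor chain IFNAR2 was at 0.21 (limma SE 0.04, adjusted p = 0.000547) and IFNAR1 at -0.20 (limma SE 0.04, adjusted p = 0.000508) on the log2 scale. Of the kinases, JAK2 was at 0.34, TYK2 at -0.14 (limma SE 0.03, adjusted p = 0.00282) and JAK1 at 0.01 (limma SE 0.03, adjusted p = 0.732). IFNAR1 and TYK2 lost their calls with scaling to total reads, at -0.08 and -0.02, and JAK1 gained one, at 0.14. IFNGR2, a chain of the interferon gamma receptor, was at -0.50 and IL10RB, shared by the interferon lambda receptor, at -0.35, both lower.

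Among 21 tested genes of nucleic acid sensing upstream of interferon, 5 were higher and 9 lower, with a median log2 fold change of -0.11. TLR7, the endosomal sensor of single-stranded RNA, rose most, at 4550.4, 5049.6 and 4927 with TP-064 and 1580.1, 1516 and 1589 with DMSO, which is a log2 fold change of 1.63 (limma SE 0.04, adjusted p = 1.58e-13). MAVS, the adaptor of both RNA sensors, was at 0.55 and TMEM173, which encodes STING, at 0.57. RNASEH2A, the catalytic subunit of the nuclease that removes RNA from DNA hybrids, fell from a mean of 2879 to 1289.6 normalized read counts, a log2 fold change of -1.16. RNASEH2B was at -0.42 and the adaptor TRAF3 at -0.44, and IRF3, the factor that starts interferon transcription, was not called at 0.05 (limma SE 0.04, adjusted p = 0.249), though scaling to total reads put it at 0.17 and called it.

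Of 9 negative regulators, 3 were higher and 2 lower, with a median of -0.03. SOCS1, which blocks JAK kinases, read 836, 801 and 711 with TP-064 and 446, 375 and 425 with DMSO, which is a log2 fold change of 0.91 (limma SE 0.08, adjusted p = 7.68e-08). CISH, of the same family, was at 1.21 and the phosphatase PTPN6 at 0.22. The phosphatases PTPN11 and PTPN1 were lower, at -0.24 and -0.20, and PTPN1 lost its call with scaling to total reads, at -0.07.

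Of 6 genes of ISG15 conjugation and the oligoadenylate pathway, 2 were higher and 3 lower, with a median of -0.14. UBA7, the activating enzyme for ISG15, was at 0.12 (adjusted p = 0.0305) and the ligase ARIH1 at 0.29. The UBA7 call was lost with DESeq2 (adjusted p = 0.0733) and without TP-064 replicate 1, TP-064 replicate 2, DMSO replicate 2 or DMSO replicate 3 (adjusted p from 0.0585 to 0.0932). ABCE1, a protein of ribosome recycling, was at -0.42, the ligase TRIM25 at -0.37 and PDE12, which degrades oligoadenylates, at -0.20, though PDE12 was not called with scaling to total reads, at -0.08.

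Of 46 further interferon-induced genes tested, 14 were higher, 22 lower and 10 not called, with a median of -0.18. RNF213, a large ubiquitin ligase, read 20127, 19745 and 17424 with TP-064 and 6026, 5957 and 5271 with DMSO, which is a log2 fold change of 1.73 (limma SE 0.06, adjusted p = 1.19e-12). TRIM22, an antiviral ligase, was at 1.01 and PARP10 at 0.76. SP140 and SP110, nuclear body proteins whose exons overlap on opposite strands, were at -1.52 and -0.99. PARP14, a relative of PARP9, was at -0.78 while PARP9 was at 1.05.

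**Figure D5:**
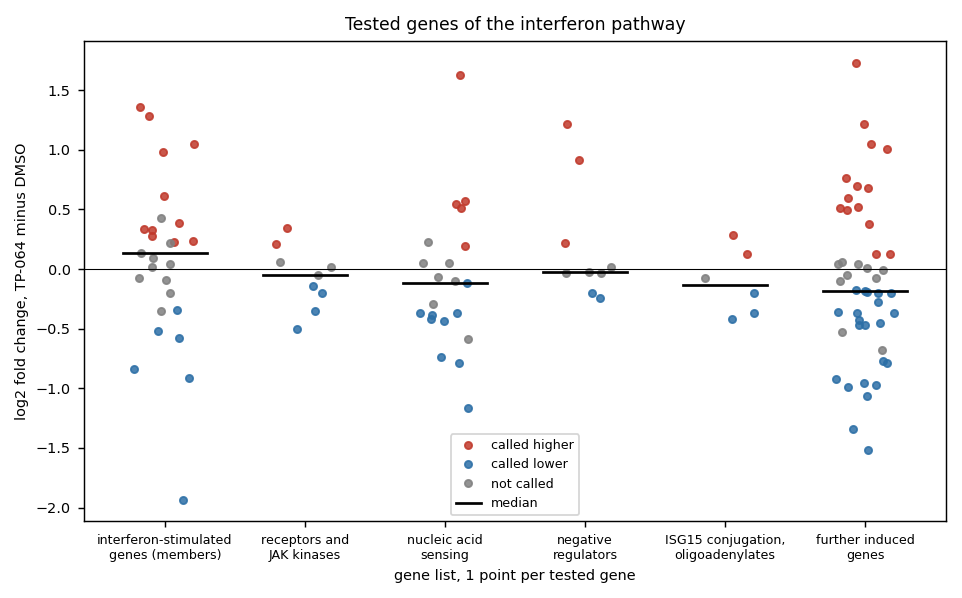
Log2 fold change (TP-064 minus DMSO) of each tested gene in the core set and in 5 further lists of the interferon pathway, with 1 point per gene, coloured by call, and a black line for the median. Each list holds genes called higher and genes called lower, with medians between -0.18 and 0.13.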

How the data were processed

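The table the authors deposited lists a signal for 18278 genes in 6 samples, each value being reads of the gene over a size factor of the library. The submitters' processing notes name the tools TopHat2 2.0.10, HTSeq 0.6.0, DESeq 1.18.0 and the hg38 build. Libraries of polyadenylated RNA were stranded, per the labels' protocols. Annotation release, strand setting and row filter: not given in the sources used here. Titles and treatment labels gave the groups and replicate numbers, and columns were matched by name. Each value was a whole multiple of 1 step per column within a tolerance of 0.001 (100% of values), which gave whole reads. For replicate 2 of each group the size factor is near 1, so there the recovery rests on unrounded decimals and the recomputed factor (1.01 in both). Recovered totals were 41354131 to 48360867 reads, which bound counting error only. Chi-square per degree of freedom between replicates was 3.06 to 7.63, above sampling noise.

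Genes with a mean of at least 10 were tested with limma 3.58.1 (R 4.3.3, trend option, 4 residual degrees of freedom, no replicate block) on log2(value + 1), two-sided, with 2230 genes left out, and the procedure was tested on simulated data. The simulation changed a small share of the genes, all of them well expressed. It therefore does not show how the procedure does for low counts or where most genes are called, as here. Alternatives used edgeR 4.0.16, DESeq2 1.42.0 and limma-voom on recovered reads (edgeR with TMM called 10562 genes), total-read and TMM scaling, other filters, pseudocounts of 0.5 and 5, a replicate block, left-out replicates, a threshold of 0.01, a null of 1.2-fold, and no genes with opposite-strand overlap. Symbols and GRCh38 coordinates come from GENCODE 29 (18214 identifiers matched).

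The set and the lists were chosen with earlier results of these data known. Members were given in full at an absolute log2 fold change of at least 0.5, with STAT2, IRF9, IRF7 and ISG15 in any case. From each pathway list up to 3 called genes with the smallest p per direction were named, and IFNAR1, IFNAR2, JAK1, TYK2 and IRF3 always. Some genes of the pathway are not reported here. Promoters printed were those with a core and the largest called change, up to 2 per direction, plus ISG15.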

Additional observations from a re-analysis of the deposited data

How the results depend on the processing

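Over the alternatives run, no called gene of the set changed direction. Of 530 comparisons of a tested gene of the set with an alternative, 500 kept their call, 11 gained one and 19 lost one, and 15 of the 27 genes kept their call throughout, 12 of them with the same sign as well. ISG15, HERC6, IFIT2 and MX2, none of them called in the main comparison, changed sign in at least 1 alternative. When the test asked for more than a 1.2-fold change, 5592 genes were called, 10 genes of the set (5 of them higher) and 36 pathway genes (16 higher and 20 lower). The calls of DDX58, IFITM2, IFITM3, BST2, MX1, DTX3L and XAF1 were lost in that test. Without genes whose exons overlap a listed gene on the opposite strand, fewer genes were tested, and 40 pathway genes were called (15 higher and 25 lower). With 1 replicate left out, 15 to 19 genes of the set were called, 9 to 13 of them higher. DESeq2 called 15 genes of the set, edgeR with TMM called 18, and total-read scaling 21. Same-numbered libraries did not deviate together over the tested genes (correlations of -0.09, 0.07 and -0.08), and TP-064 replicates 1 and 3 did not correlate best with their own number. These correlations cannot tell whether a pairing acts on some genes only. With the replicate number as a block in limma, 10491 genes and 18 genes of the set were called, 12 higher and 6 lower. The gene gained was SAMD9 (limma adjusted p = 0.0475). Genes of low count, such as USP18, XAF1 and IFIT2, carry the widest errors, and 5 genes of the set were too low to test.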
